A study of Mus musculus with 12 samples.

Results

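Aminoacyl-tRNA synthetases load each transfer RNA with its amino acid, the step that joins the genetic code to protein synthesis. Mammalian cells keep one set of these enzymes for the cytosol and another, also encoded in the nucleus and mostly marked by the suffix 2 in its gene symbols, for the mitochondrial ribosome. Several cytosolic synthetases sit together in the multisynthetase complex, and uncharged tRNA is sensed by the kinase Gcn2 (Eif2ak4), which acts through Eif2s1 and the transcription factor Atf4. The kinase mTOR, which couples amino acid and growth factor supply to protein synthesis, acts in 2 complexes; rapamycin is a partial inhibitor of the first, and PP242 occupies the ATP site of the kinase, which is common to both complexes.

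The genes described here are the listed synthetases, 20 cytosolic and 16 mitochondrial, among 18054 genes tested. Of the 18054, 11871 had a gene symbol, and each accession without a symbol was counted as a gene of its own in the shares of all genes. The rule lists them by symbol, with no measured value in it, though it was written with earlier results of these data known. Probes were found for 35 of the 36, all but Cars2, and these 35 were well above background on all 12 arrays, so that every measured member was tested.

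The samples were cultures of NIH3T3, an immortalised mouse embryonic fibroblast line grown in medium with calf serum, kept for 18 h with 2 µM PP242, 50 nM rapamycin or the solvent DMSO alone, with 4 one-colour arrays per group. The treatment protocol in the labels gives the PP242 dose as 2 mM, whereas the characteristics and the design text give 2 µM. The design text calls the 4 samples of a group independent experiments. The labels name no engineered allele. All 8 fibroblast markers checked were well above background on the 8 arrays used below, with a summed log2 level of 9.33 to 9.79 under PP242, 9.52 to 9.62 under rapamycin and 9.70 to 9.76 in DMSO, and none of 3 endothelial markers was above background there; Epcam and Cdh1 of epithelium and Myod1 and Myog of muscle were not either. In RNA from whole cultures, fewer cells of a kind and less RNA per cell cannot be told apart.

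Values are log2 signals minus the array's own 75th percentile, for the brightest probe of a gene, and they compare samples, not genes. On 4 arrays, DMSO 2, rapamycin 3, PP242 1 and PP242 4, dim probes were raised: the 75th percentile of the signal was 7.05 to 69.5 times the 25th, against 251 to 406 times on the other 8, and 77.9% to 97.9% of the probes stood well above background, against 55.7% to 60.4%. The tests below therefore use the other 8 arrays (PP242 2 and 3, rapamycin 1, 2 and 4, DMSO 1, 3 and 4), and values on all 12 arrays are given beside them. A change was called at an adjusted p under 0.05 (limma across all genes, two-sided). With 2 arrays in the PP242 group, the number of arrays limits the precision.

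The sequences below are shown because several cytosolic members that fell under PP242 carry the same short word near the start of the gene. The word searched was TGATGNAA on both strands, the form of the C/EBP-ATF response element to which Atf4 is known to bind with a C/EBP partner. RefSeq windows of 250 bases before to 50 bases after the start (build GRCm38.p6) were matched for 13 cytosolic and 14 mitochondrial members. The 14 include Cars2, which had no probe, and the measured Hars2 and Pars2 had no matched window. The word occurred in 1304 of 32851 windows of all genes (3.97%), in 5 of the 13 cytosolic genes (38.5%) and in none of the 15 windows of the 14 mitochondrial genes. Capitals mark the word; each sequence is read 5′ to 3′ on the strand of its gene.
Aars, chr8:111033690-111033777, plus strand: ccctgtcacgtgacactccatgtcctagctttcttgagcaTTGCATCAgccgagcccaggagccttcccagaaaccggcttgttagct
Aars, chr8:111033840-111033869, plus strand: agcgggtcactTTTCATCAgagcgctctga
Gars, chr6:55037931-55038000, plus strand: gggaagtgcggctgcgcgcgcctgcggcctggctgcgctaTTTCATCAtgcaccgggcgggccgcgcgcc
Iars, chr13:49682126-49682155, plus strand: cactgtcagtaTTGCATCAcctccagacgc
Tars, chr15:11399659-11399713, minus strand: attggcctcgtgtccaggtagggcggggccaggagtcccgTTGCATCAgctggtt
Yars, chr4:129189895-129189924, plus strand: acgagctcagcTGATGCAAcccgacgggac

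The first base of the capitals lies 112 bases before the annotated start in Aars (first site), 30 before it in Gars and 15 before it in Tars, and 9, 7 and 3 bases after it in Aars (second site), Iars and Yars. The version TTGCATCA, which is TGATGCAA read on the other strand, is a special case of the word; it was found in 0.895% of all windows and in Aars, Iars, Tars and Yars. A match is a description of these letters, not a binding site. The word was chosen with the changes known. All 5 genes fell under PP242 in the comparison that follows. Of the 8 cytosolic genes whose window lacks the word, Mars1, Farsa and Farsb fell as well, Qars rose, and Dars, Eprs, Kars and Sars did not pass. Of the 7 cytosolic genes with no matched window, Cars, Hars, Lars, Nars, Vars and Wars fell and Rars did not pass.

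The first comparison asked how the synthetase mRNAs stood after 18 h of PP242. Of the 20 cytosolic members 14 fell and 1 rose (Qars), whereas of the 15 mitochondrial members 2 fell (Yars2 and Mars2) and 3 rose (Vars2, Rars2 and Fars2). Over all genes tested 29.5% were called, 15.3% lower and 14.2% higher, so the mitochondrial share is near this background and the cytosolic members lie mostly on its lower side. The median log2 fold change was -0.56 for the cytosolic enzymes and -0.03 for the mitochondrial ones, with -0.02 for all genes. On these arrays, 16 cytosolic members had both PP242 arrays below all 3 DMSO arrays and 1 had them above, and 4 mitochondrial members lay below and 4 above; each position was held by 30.6% of all genes. The falls ran from 2.53-fold for Cars to 1.32-fold for Vars.

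**Figure D1:**
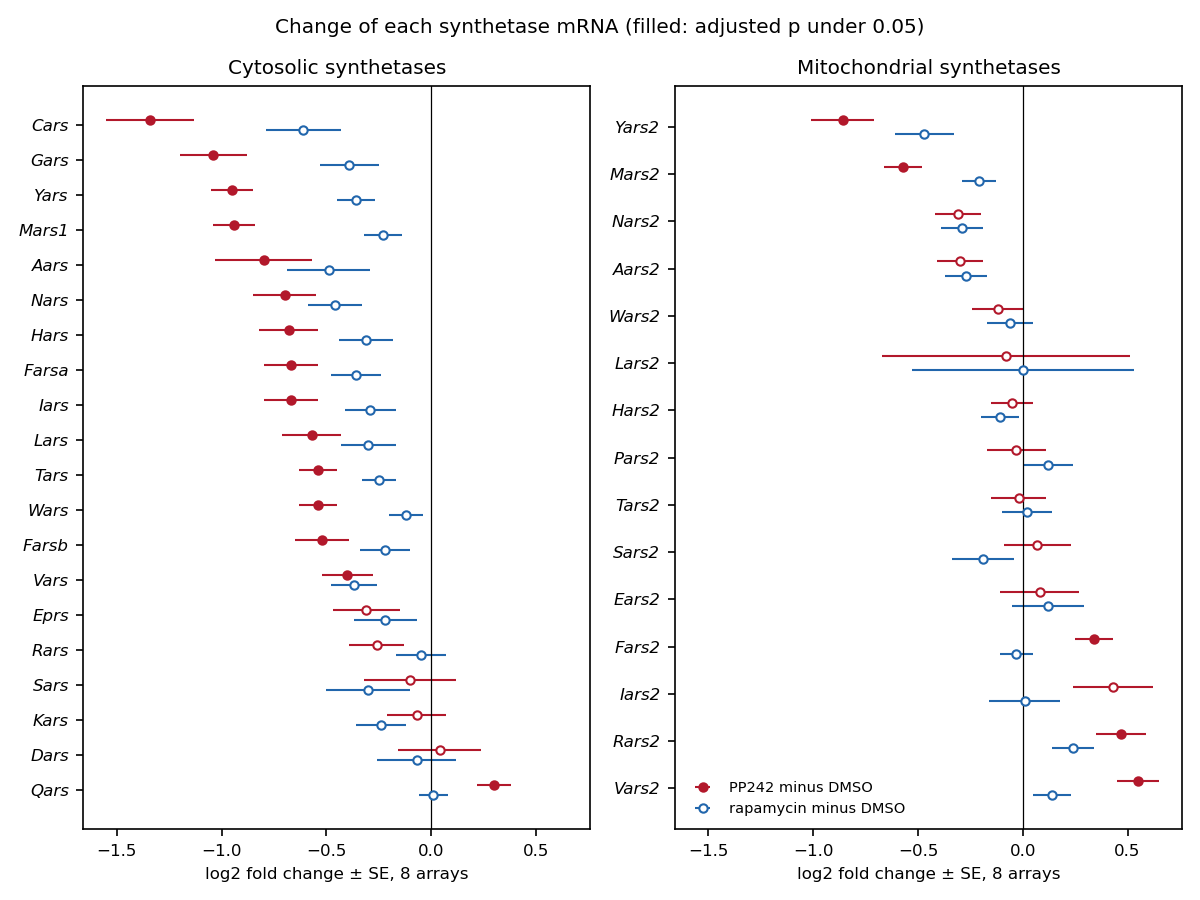
Log2 fold change with its standard error for the 35 measured synthetases, PP242 minus DMSO in red and rapamycin minus DMSO in blue, from the 8 arrays (2 PP242, 3 rapamycin, 3 DMSO); filled points have an adjusted p under 0.05. Cytosolic members reach down to -1.34 (Cars) under PP242 and lie mostly left of 0, while mitochondrial members spread on both sides, from -0.86 (Yars2) to 0.55 (Vars2); no rapamycin point is filled.

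Cars, which charges the cysteine tRNA, changed most. It had 1.76, 1.90, 1.87 and 1.53 in PP242 cultures 1 to 4, 2.79, 2.83, 1.40 and 2.21 in rapamycin cultures 1 to 4, and 3.22, 2.82, 3.07 and 3.38 in DMSO cultures 1 to 4. All 4 PP242 arrays lay below all 4 DMSO arrays, and only rapamycin 3, an array with raised dim probes, lay lower still. Cars fell by 1.34 ± 0.21 under PP242 on the log2 scale (SE, 2 against 3 arrays, limma adjusted p = 0.00439), and its 3 probes gave -1.34, -1.31 and -1.48.

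Gars serves both compartments from one gene, and its mutations cause a peripheral neuropathy in mouse and human. It had 0.68, 0.79, 0.85 and 0.51 in PP242 cultures, 1.50, 1.48, 0.44 and 1.40 in rapamycin cultures, and 1.68, 1.35, 1.72 and 2.17 in DMSO cultures. The PP242 and DMSO arrays did not overlap, also with all 4 of each. Gars fell by 1.04 ± 0.16 (limma adjusted p = 0.00443), 2.05-fold.

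Yars charges the tyrosine tRNA and is known to be secreted and split into fragments that signal to other cells. Its values were 2.95, 3.19, 3.18 and 2.61 under PP242, 3.82, 3.77, 1.50 and 3.74 under rapamycin, and 4.06, 3.63, 4.05 and 4.29 in DMSO. Every PP242 array was below every DMSO array, and apart from rapamycin 3 the rapamycin arrays lay between the PP242 arrays and DMSO 1, 3 and 4. It fell by 0.95 ± 0.10 (limma adjusted p = 0.00134). Mars1, which charges both the initiator and the elongator methionine tRNA, had 1.95, 2.11, 2.12 and 1.68 under PP242, 2.92, 2.87, 0.72 and 2.70 under rapamycin, and 3.05, 2.68, 2.99 and 3.14 in DMSO. Again the PP242 and DMSO arrays did not overlap, and rapamycin 3 was the lowest array of all. Mars1 fell by 0.94 ± 0.10 (limma adjusted p = 0.00128).

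Aars, the alanine enzyme, whose editing function protects Purkinje cells in mouse, had 3.85, 4.10, 4.04 and 2.85 under PP242, 4.56, 4.67, 2.34 and 3.89 under rapamycin, and 4.85, 4.53, 4.88 and 4.88 in DMSO. PP242 and DMSO did not overlap, but the rapamycin arrays spread widely, with rapamycin 4 below PP242 2 and 3. Aars fell by 0.80 ± 0.23 (limma adjusted p = 0.0389), a call that passed in 2 of the 8 fits that leave out 1 array. Nars, for asparagine, had 2.83, 2.95, 2.99 and 2.31 under PP242, 3.33, 3.32, 1.40 and 2.96 under rapamycin, and 3.58, 3.17, 3.57 and 3.84 in DMSO. Every PP242 array was below every DMSO array, and rapamycin 4 reached into the PP242 range. It fell by 0.70 ± 0.15 (limma adjusted p = 0.0146).

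Hars, the histidine enzyme and the Jo-1 autoantigen of human myositis, had 2.30, 2.47, 2.61 and 2.50 under PP242, 2.82, 2.91, 0.94 and 3.01 under rapamycin, and 3.17, 2.83, 3.05 and 3.46 in DMSO. The PP242 arrays were all below the DMSO arrays. Hars fell by 0.68 ± 0.14 (limma adjusted p = 0.0128). Iars, the isoleucine enzyme of the multisynthetase complex, had 2.97, 3.33, 3.30 and 2.54 under PP242, 3.69, 3.77, 1.34 and 3.65 under rapamycin, and 3.87, 3.44, 3.88 and 4.22 in DMSO. These groups did not overlap between PP242 and DMSO either. Iars fell by 0.67 ± 0.13 (limma adjusted p = 0.00984).

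The other cytosolic members that fell were Farsa and Farsb, the 2 subunits of the phenylalanine enzyme (-0.67 and -0.52), Lars for leucine (-0.57), Tars for threonine (-0.54), Wars for tryptophan (-0.54) and Vars for valine (-0.40). Their limma adjusted p lay between 0.00544 (Wars) and 0.0466 (Vars). Of the 8 fits that leave out 1 array, Vars passed in 2, Farsb in 5, Farsa and Lars in 6, and Tars and Wars in 7. Not called were Eprs, which joins the glutamate and proline enzymes in one chain (-0.31), Rars for arginine (-0.26), Sars for serine (-0.10), Kars, whose gene also makes the mitochondrial lysine enzyme (-0.07), and Dars for aspartate (0.04).

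Qars, the glutamine enzyme, went the other way. It had 4.58, 4.98, 5.0 and 4.33 under PP242, 4.68, 4.71, 2.26 and 4.70 under rapamycin, and 4.74, 4.43, 4.62 and 4.71 in DMSO. PP242 2 and 3 were above the DMSO arrays, but PP242 1 and 4, with raised dim probes, fell within or below the DMSO range. Qars rose by 0.30 ± 0.08 (limma adjusted p = 0.0362), and this call passed in 2 of 8 fits that leave out 1 array.

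**Figure D2:**
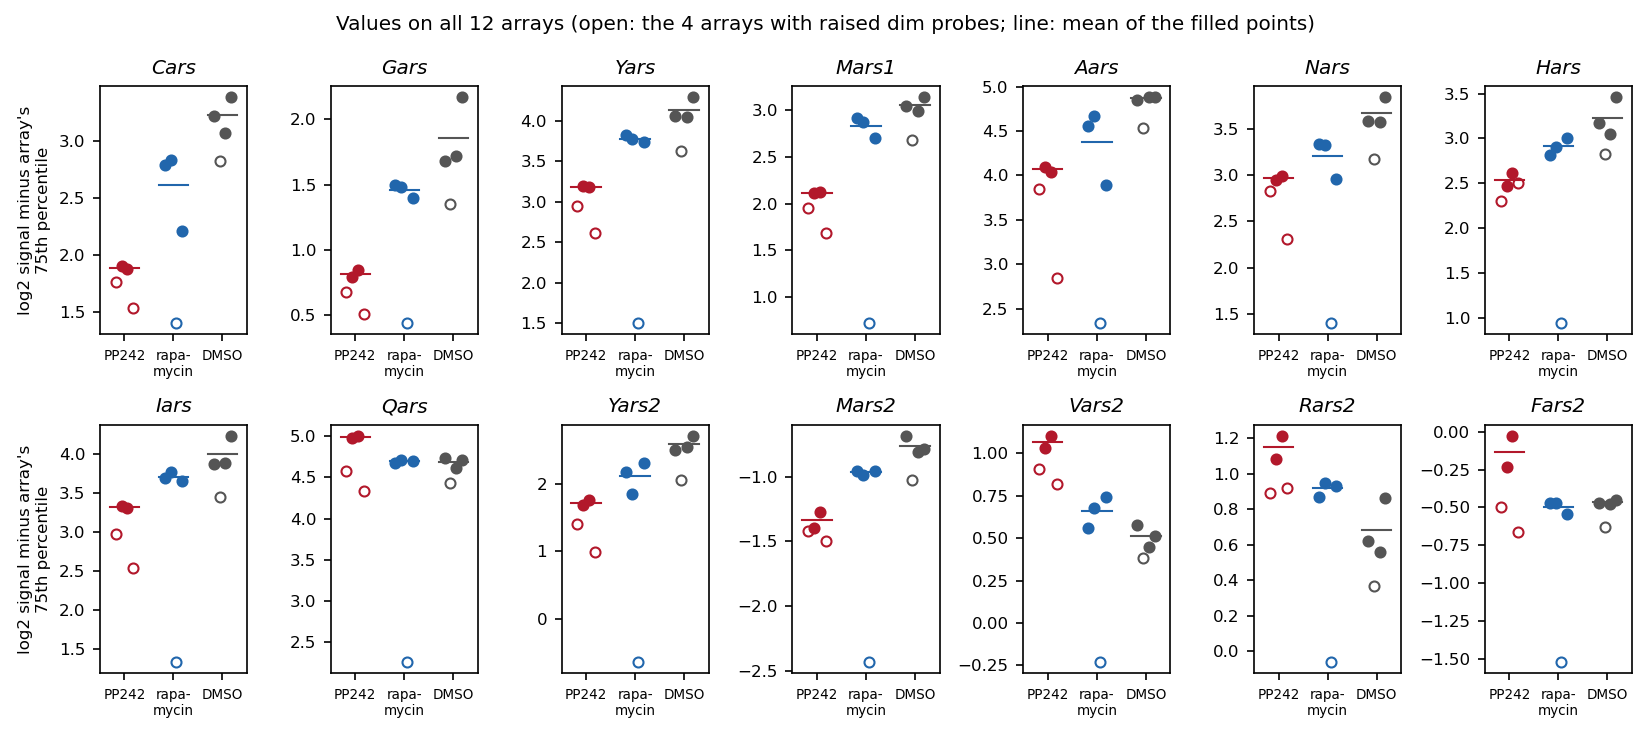
Log2 signal minus the array's 75th percentile for the 14 members given in full, by array, with PP242 left, rapamycin in the middle and DMSO right; open circles are the 4 arrays with raised dim probes and lines are the means of the filled points. In Cars, Gars, Yars and Mars1 all PP242 points lie below all DMSO points, in Vars2 and Rars2 all PP242 points lie above them, and the open rapamycin point (rapamycin 3) is the lowest in every panel.

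Qars belongs to the multisynthetase complex, as do Dars, Eprs, Iars, Kars, Lars, Mars1 and Rars. Of these 8 members 3 fell (Iars, Lars and Mars1) and 1 rose, with a median of -0.29, whereas of the other 12 cytosolic members 11 fell, with a median of -0.68. This grouping was made with the members' changes known, and its difference was not tested.

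Among mitochondrial members, Yars2, the tyrosine enzyme, had 1.40, 1.68, 1.75 and 0.99 under PP242, 2.17, 1.85, -0.64 and 2.31 under rapamycin, and 2.50, 2.06, 2.54 and 2.70 in DMSO. All PP242 arrays lay below all DMSO arrays. It fell by 0.86 ± 0.15 (limma adjusted p = 0.00702), 1.82-fold. Mars2, which charges the methionine tRNA that mitochondria use for initiation and elongation, had -1.42, -1.40, -1.27 and -1.50 under PP242, -0.96, -0.99, -2.43 and -0.96 under rapamycin, and -0.69, -1.03, -0.81 and -0.79 in DMSO. Here too PP242 and DMSO did not overlap. Mars2 fell by 0.57 ± 0.09 (limma adjusted p = 0.00428).

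The other mitochondrial members that passed rose. Vars2, for valine, had 0.91, 1.03, 1.1 and 0.82 under PP242, 0.56, 0.68, -0.23 and 0.74 under rapamycin, and 0.58, 0.38, 0.45 and 0.51 in DMSO. All 4 PP242 arrays were above every rapamycin and DMSO array. It rose by 0.55 ± 0.10 (limma adjusted p = 0.00702), 1.47-fold. Rars2, for arginine, had 0.89, 1.08, 1.21 and 0.92 under PP242, 0.87, 0.95, -0.06 and 0.93 under rapamycin, and 0.62, 0.37, 0.56 and 0.86 in DMSO. The PP242 arrays were above the DMSO arrays but within reach of the rapamycin ones. Rars2 rose by 0.47 ± 0.12 (limma adjusted p = 0.0249), a call that passed in 4 of those 8 fits.

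Fars2, the single-chain mitochondrial phenylalanine enzyme, had -0.50, -0.23, -0.03 and -0.66 under PP242, -0.47, -0.47, -1.52 and -0.54 under rapamycin, and -0.47, -0.63, -0.48 and -0.45 in DMSO. PP242 2 and 3 were above the DMSO arrays, while PP242 1 and 4 were not. It rose by 0.34 ± 0.09 (limma adjusted p = 0.0366), a call that passed in 2 of 8 fits that leave out 1 array. Of the 10 members not called, Iars2 had the largest value at 0.43 ± 0.19 (limma adjusted p = 0.128), and Nars2 and Aars2 were at -0.31 and -0.30. Lars2, the leucine enzyme, was too variable to read: its DMSO arrays 1, 3 and 4 had 6.85, 6.27 and 4.92, and its change was -0.08 ± 0.59. The remaining 6 (Ears2, Hars2, Pars2, Sars2, Tars2 and Wars2) lay between -0.12 and 0.08.

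With all 12 arrays the directions of the 20 called members were the same and none passed, with adjusted p from 0.14 (Cars) to 0.997 among cytosolic members; at an unadjusted p under 0.05 there were 3 cytosolic and 0 mitochondrial members, and 0.344% of all genes were called. In that fit the median was -0.62 for cytosolic and -0.01 for mitochondrial members, beside a median of all genes that had shifted to 0.41. With 4 against 4 arrays, 12 cytosolic members had every PP242 array below every DMSO array, which was so for 10.6% of all genes, and 8 overlapped. Among mitochondrial members 3 lay wholly below (Aars2, Mars2 and Yars2) and 2 wholly above (Rars2 and Vars2), and 9.25% of all genes lay wholly above. Slides 1, 2 and 3 each hold arrays of both groups. Within them the cytosolic median was -0.62, -0.38 and -0.75 and the mitochondrial one -0.11, 0.14 and -0.16. Slide 1 holds no array with raised dim probes. Of the arrays compared, slide 2 holds DMSO 2 and PP242 4 and slide 3 holds PP242 1, whose effect on these medians was not tested. With slide as a block on the 8 arrays, 5 cytosolic members kept their call (Cars, Gars, Mars1, Nars and Yars, all lower) and 0 of the 5 mitochondrial ones did, with limma adjusted p from 0.0524 (Mars2) to 0.212 (Fars2); the changes themselves kept their signs. The count of cytosolic members that fell rested on both PP242 arrays: leaving out PP242 2 gave 4, leaving out PP242 3 gave 6, and the mitochondrial calls numbered 2 without either and 3 without DMSO 1. Cars, Gars, Mars1, Yars and Mars2 kept their call in all 8 fits that leave out 1 array.

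Pairs were formed for the 13 amino acids with a cytosolic enzyme of their own and a measured mitochondrial one. This gives 14 pairs since phenylalanine has 2 cytosolic subunits. Eprs, which serves both glutamate and proline, was not paired. Under PP242 it had -0.31, with the mitochondrial glutamate enzyme Ears2 at 0.08 and the proline enzyme Pars2 at -0.03. In all 14 pairs the cytosolic value under PP242 was the lower one. The gap was widest for Iars (-0.67) with Iars2 (0.43), Farsa (-0.67) with Fars2 (0.34), and Vars (-0.40) with Vars2 (0.55). It was narrow for tyrosine, where Yars had -0.95 and Yars2 -0.86, and for serine, where Sars had -0.10 and Sars2 0.07. Methionine and tyrosine were the amino acids whose cytosolic and mitochondrial enzymes both fell. These gaps are given as a description of the same 8 arrays and were not tested.

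**Figure D3:**
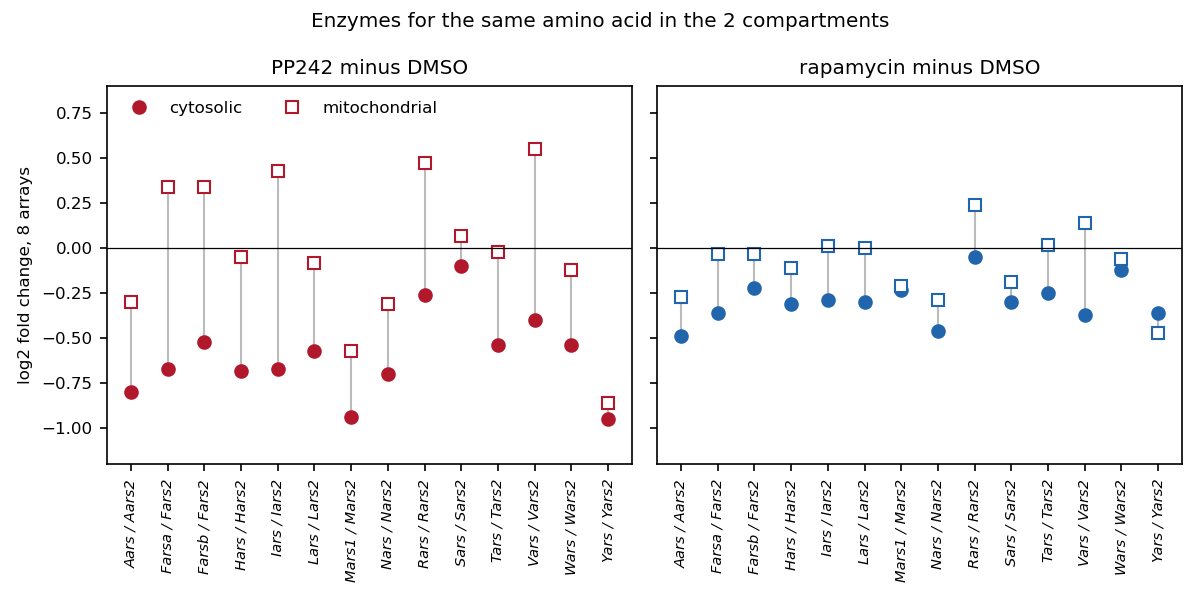
Log2 fold changes of the cytosolic (filled circle) and mitochondrial (open square) enzyme for the same amino acid, PP242 minus DMSO on the left and rapamycin minus DMSO on the right, from the 8 arrays. Under PP242 the circle lies below the square in all 14 pairs, with Yars at -0.95 and Yars2 at -0.86 the closest; under rapamycin most values lie closer to 0, with the serine pair and Hars2 among the exceptions, and the tyrosine pair is turned round (-0.36 for Yars, -0.47 for Yars2).

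The second comparison set rapamycin against DMSO, using the same DMSO arrays as the first. None of the 35 members passed (limma), where 0.205% of all genes did. At an unadjusted p under 0.05 there were 11 cytosolic and 4 mitochondrial members, and 2528 of all 18054 genes. The median log2 fold change was -0.29 for cytosolic and -0.03 for mitochondrial members, with -0.02 for all genes. For 15 of 20 cytosolic members the 3 rapamycin arrays all lay below the 3 DMSO arrays, a position held by 10.6% of all genes; 5 mitochondrial members lay wholly below and 1, Rars2, wholly above, as 8.22% of all genes did.

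The values furthest from 0 were those of Cars at -0.61 ± 0.18 (limma adjusted p = 0.233) and Aars at -0.49 ± 0.20 (limma adjusted p = 0.346), both with rapamycin 4 well below rapamycin 1 and 2. Yars2 had -0.47, Nars -0.46 and Gars -0.39. Mars1, among the 4 largest falls under PP242, had -0.23 here, and Wars -0.12. Qars stood at 0.01. On all 12 arrays the medians were -0.70 and -0.24 and no member passed either, with 1 cytosolic member at an unadjusted p under 0.05; rapamycin 3 alone lay at a median of -2.39 (cytosolic) and -1.30 (mitochondrial) relative to the DMSO mean. Within slides 1, 2 and 3 the cytosolic median was -0.34, 0.15 and -1.27, so the lower value did not hold on slide 2. Arrays with raised dim probes were DMSO 2 on slide 2 and rapamycin 3 on slide 3. Their effect on these medians was not tested.

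**Figure D4:**
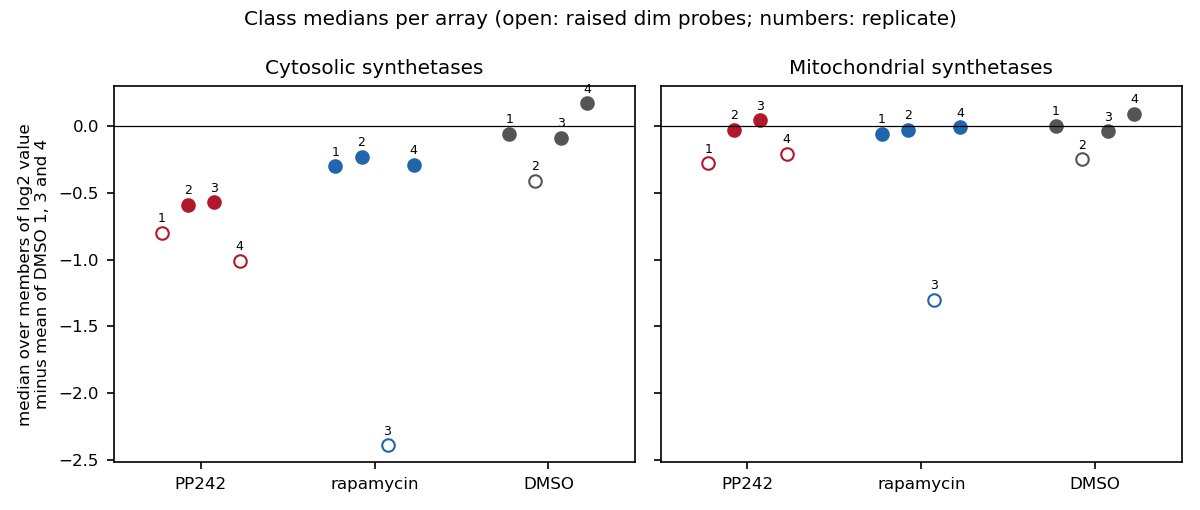
For each array, the median over the 20 cytosolic (left) or 15 mitochondrial (right) members of the log2 value minus the mean of DMSO 1, 3 and 4; open circles are the arrays with raised dim probes and numbers are replicates. Cytosolic medians are -0.59 and -0.57 on PP242 2 and 3, -0.23 to -0.30 on rapamycin 1, 2 and 4 and -0.09 to 0.17 on DMSO 1, 3 and 4; mitochondrial medians of these 8 arrays stay between -0.06 and 0.09, and rapamycin 3 lies far below in both.

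The third comparison tested PP242 against rapamycin directly, at the different doses given. Here 4 cytosolic members were lower under PP242 (Mars1, Yars, Wars and Gars) and 0 higher, and among mitochondrial members Mars2 was lower and Vars2 and Fars2 were higher; over all genes 16.4% were called, 8.51% lower and 7.9% higher. The 4 of 20 and 3 of 15 members called are near that background. PP242 2 and 3 lay below rapamycin 1, 2 and 4 for 11 cytosolic and 2 mitochondrial members (26.2% of all genes) and above them for 1 and 4 (29.1% of all genes). Mars1 differed by -0.71 ± 0.10 (limma adjusted p = 0.00644) and Yars by -0.59 ± 0.10 (limma adjusted p = 0.013). Gars had -0.64 (adjusted p = 0.0393, limma) and Wars -0.42 (adjusted p = 0.024, limma).

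Vars2 was higher by 0.41 and Fars2 by 0.36, and Mars2 differed by -0.37, with limma adjusted p of 0.0337, 0.043 and 0.0342. Cars, with the lowest value at -0.72 ± 0.21, missed the threshold (limma adjusted p = 0.059), as did Qars at 0.29 (limma adjusted p = 0.0603). None of the 7 calls held in all 8 fits that leave out 1 array: no member passed once either PP242 array was left out, and the cytosolic count was 2 without rapamycin 1 or 2 and 7 without DMSO 4. The mitochondrial count was 3 without DMSO 4, 1 without rapamycin 4 and 0 without any other single array. On all 12 arrays no member passed, also at an unadjusted p under 0.05, and the cytosolic median was 0.01 against -0.30 on 8 arrays. Within slides 1, 2 and 3 it was -0.35, -0.54 and 0.52, so the sign differed on slide 3. Of the arrays compared, those with raised dim probes were PP242 4 on slide 2 and PP242 1 and rapamycin 3 on slide 3. Slide 1 held none, with 1 array per group. The effect of the raised arrays on these medians was not tested.

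The companions of tRNA charging, 25 listed genes for scaffold proteins, tRNA maturation and export, elongation, editing and sensing, were all measured. Under PP242 9 fell and 3 rose, with a median of -0.08, where 15.3% of all genes fell and 14.2% rose (29.5% in all). Among those 12 the lowest adjusted p was that of Xpot, the exportin that carries tRNA out of the nucleus: it had 1.63, 1.77, 1.79 and 1.05 under PP242, 2.54, 2.41, 0.31 and 2.44 under rapamycin, and 3.05, 2.65, 3.06 and 2.97 in DMSO. The PP242 arrays were all below the DMSO arrays, and rapamycin 1, 2 and 4 lay between the PP242 arrays and DMSO. Xpot fell by 1.25 ± 0.09 under PP242 (limma adjusted p = 0.000318), and had -0.56 ± 0.08 under rapamycin (limma adjusted p = 0.0633).

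Dtd1, a deacylase that clears D-amino acids from tRNA, rose by 0.77 ± 0.08 (limma adjusted p = 0.00117); it had 1.43, 1.71, 1.73 and 1.19 under PP242, 1.17, 1.1, -0.06 and 1.16 under rapamycin, and 0.93, 0.69, 0.91 and 1.00 in DMSO. All PP242 arrays were above all DMSO arrays. Gatc and Qrsl1 both fell by 0.63 (limma adjusted p = 0.00188 and 0.00326). They are subunits of the amidotransferase that makes the charged glutamine tRNA of mitochondria, which have no glutaminyl-tRNA synthetase of their own. Gatb, the third subunit, had 0.26 and was not called.

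Aimp2, a scaffold protein of the multisynthetase complex, fell by 0.71, and Trnt1, which adds the CCA end to tRNA, by 0.53 (limma adjusted p = 0.00415 and 0.00848). Another scaffold protein, Aimp1, rose by 0.48 (limma adjusted p = 0.0103). The elongation factor genes Eef1g, Eef1a1 and Eef1b2, which deliver charged tRNA to the ribosome or recharge the factor that does, were not called, at -0.20, 0.14 and 0.13, whereas the fourth gene of that list, Eef1d, fell by 0.49 (limma adjusted p = 0.0224). Atf4 fell by 0.51 ± 0.11 (limma adjusted p = 0.0173), and Eif2s1, also listed for the sensing of uncharged tRNA, fell by 0.46. The rest of that list was not called: Eif2ak4 had 0.44 (limma adjusted p = 0.071), Impact 0.71 (limma adjusted p = 0.171) and Gcn1 -0.08. The other companions called were the editing gene Aarsd1 (-0.87), which fell, and Dtd2 (0.59), a second deacylase of D-aminoacyl-tRNA, which rose. Aimp1, Gatb, Eef1d, Atf4, Eif2s1, Eif2ak4, Impact, Gcn1, Aarsd1 and Dtd2 are named here after their values were seen. Under rapamycin 0 of the 25 companions passed (limma), with 6 at an unadjusted p under 0.05. Between PP242 and rapamycin 6 passed, where 16.4% of all genes did (8.51% lower and 7.9% higher): Xpot (-0.69), Aimp2 (-0.54), Gatc (-0.48) and Qrsl1 (-0.39) were lower, and Dtd1 (0.57) and Aimp1 (0.39) higher. On all 12 arrays no companion passed in any of the 3 comparisons, with 2, 0 and 1 at an unadjusted p under 0.05. The count of companions called was 5 in PP242 against DMSO when either PP242 array was left out; in PP242 against rapamycin it was then 1, and 3 without rapamycin 1 or rapamycin 2.

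**Figure D5:**
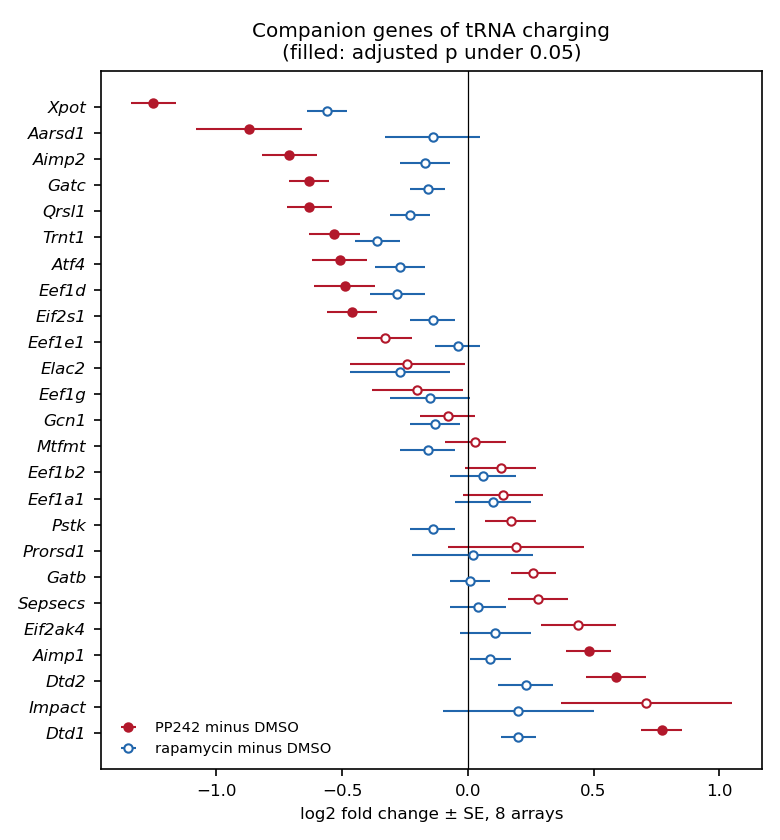
Log2 fold change with its standard error of the 25 companion genes, PP242 minus DMSO in red and rapamycin minus DMSO in blue, from the 8 arrays; filled points have an adjusted p under 0.05. Xpot lies lowest at -1.25 and Dtd1 highest at 0.77 under PP242, and no rapamycin point is filled.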

How the data were processed

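The authors hybridised Cy3-labelled RNA of 12 NIH3T3 samples to one-colour Agilent arrays. Per the file headers, the deposited processed signal is an intensity from which Agilent Feature Extraction had removed background and spatial trend, array by array, without scaling between arrays; the headers name version 10.5.1.1 and the submitters' processing notes 10.1. The deposited value table holds log2 values with column medians of 8.54 to 8.56; they rank probes as the spot intensity does (Spearman correlation of at least 0.9998), the tool that made them is not named by label or header, and they served as an alternative.

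From the intensity, log2 values were computed and scaled by subtracting the 75th percentile of the non-control probes. Control spots and spots marked as outliers were left out, which removed 1 member value (Dars in DMSO 3); no spot was saturated. Accessions of the array design gave 24836 probes 1 symbol, 0 several and 16338 none, through RefSeq tables. Probes well above background on at least 4 arrays of the fit were kept, each gene by its brightest, and genes were tested with limma 3.58.1 in R 4.3.3 (lmFit, eBayes, Benjamini-Hochberg at 0.05), all 3 groups in 1 fit. The 8 arrays are those whose 75th percentile of signal exceeds 100 times the 25th. Slide and array weights, scaling, background correction, filter, probe rule, samples and left-out arrays were varied. The test was checked on simulated data.

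Members, gene lists, the motif and the choice of arrays were made with earlier results of these data known. Given in full were the 8 cytosolic members with the largest change among those called in PP242 against DMSO, every member called higher, and the 4 mitochondrial members with the largest change; of companions, up to 6 called in order of adjusted p and 3 not called by level, of which the first 2 called are given per array, and the other companions named were added after their values were seen. Groups and numbers come from the titles.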

Additional observations from a re-analysis of the deposited data

Results flagged for a closer look

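Within a group of 4 arrays, single arrays stood far from the other 3 (Dixon's test) for 26 of 104 combinations of member and group. All 26 lay on arrays with raised dim probes, rapamycin 3 and DMSO 2. A single such test passes by chance about 1 time in 20. The members share the same arrays, so the combinations are not independent and that rate is no yardstick for their count. On rapamycin 3 the cytosolic values were Dars at 0.88, Eprs at 0.27, Farsb at -0.48, Gars at 0.44, Hars at 0.94, Iars at 1.34, Kars at 0.79, Lars at 1.80, Mars1 at 0.72, Qars at 2.26, Tars at 2.11, Vars at 0.22, Wars at 0.84 and Yars at 1.50, each below the other 3 rapamycin arrays. There the mitochondrial values, below the others except for Hars2, which was above them, were Fars2 at -1.52, Hars2 at -0.44, Lars2 at 4.22, Mars2 at -2.43, Pars2 at -2.02, Rars2 at -0.06, Tars2 at 1.05, Wars2 at -2.57 and Yars2 at -0.64. On DMSO 2 they were Aars at 4.53, Fars2 at -0.63 and Nars2 at -1.31, also below the other 3. Whether the raised dim probes account for these values was not tested. None of these arrays entered the fit on 8 arrays.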

How the results depend on the processing

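The 27 member calls kept their sign, or stood at 0.00 (Wars between PP242 and rapamycin on all 12 arrays), in all 621 refits, and 259 of these refits lost the adjusted p. Counts moved more than medians. Without the choice of 8 arrays, the fit of all 12 arrays called 0 members and 0 companions in each comparison (limma) and 88, 0 and 0 of all genes in PP242 against DMSO, rapamycin against DMSO and PP242 against rapamycin. Its cytosolic and mitochondrial medians were -0.70 and -0.24 for rapamycin against DMSO, and 0.01 and 0.11 for PP242 against rapamycin. With slide as a block the 12 arrays again gave 0 calls and medians of -0.57, -0.16, -0.08 and 0.12. With array weights, the 12 arrays gave 10173, 2914 and 8771 calls over all genes. For PP242 against DMSO they gave 16 cytosolic calls (15 lower, 1 higher), 7 mitochondrial and 18 companion calls. For rapamycin against DMSO they gave 3 cytosolic, 3 mitochondrial and 6 companion calls (cytosolic median -0.20), and 15, 6 and 14 for PP242 against rapamycin. A fit of 11 arrays without rapamycin 3 was chosen after seeing the data. For PP242 against DMSO it gave 12 cytosolic calls, all lower, 3 mitochondrial and 10 companion calls and 3842 genes. For rapamycin against DMSO it gave 3 genes over all and a cytosolic median of -0.16. For PP242 against rapamycin it gave 5 cytosolic calls, all lower, 0 mitochondrial calls, 3 companions, 1581 genes and a cytosolic median of -0.44.

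On the 8 arrays, slide as a block gave 5 cytosolic, 0 mitochondrial and 5 companion calls and 1918 genes for PP242 against DMSO, 0 genes for rapamycin against DMSO, and 1, 0, 0 and 749 for PP242 against rapamycin. Median centring gave 3 mitochondrial calls for PP242 against DMSO, 4 genes and medians of -0.39 and -0.13 for rapamycin against DMSO, and 1, 0, 3 and 1904 for PP242 against rapamycin. No filter gave 3 mitochondrial calls, 0 genes for rapamycin against DMSO, and 2, 0, 3 and 1649. Fitting only the groups compared gave 3 and 0 mitochondrial calls for PP242 against DMSO and against rapamycin, and 0 genes for rapamycin against DMSO. Normexp background correction gave 0 genes for rapamycin against DMSO and 2, 0 and 1832 cytosolic, mitochondrial and all-gene calls for PP242 against rapamycin. The deposited log2 table gave 13 genes for rapamycin against DMSO, a cytosolic median of -0.44 for PP242 against DMSO, and a cytosolic median of -0.21 with 0 mitochondrial calls between PP242 and rapamycin. The stricter filter gave 66 genes and 1 companion for rapamycin against DMSO, and quantile normalisation and the mean of probes each moved the mitochondrial PP242 median to 0.03. The causes were not tested.

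Whether the replicate numbers pair the samples could not be decided. Among the 8 arrays, 3 of 4 same-numbered pairs correlated over 0.1 in their deviations from the group means (-0.31 to 0.75). Of these arrays, 4 of 8 correlated best with their own number. DMSO 4 with rapamycin 4 had 0.75, DMSO 1 with rapamycin 1 0.62, DMSO 3 with PP242 3 0.18 and rapamycin 2 with PP242 2 -0.31. The deviations of the 2 PP242 arrays mirror each other, so the check says little about that group. The main fit used no pairing. With a replicate block the 8 arrays gave 10 cytosolic calls, all lower, 3 mitochondrial calls and a mitochondrial median of 0.07 for PP242 against DMSO, 0 genes for rapamycin against DMSO, and 0, 0 and 3 calls with a mitochondrial median of 0.08 for PP242 against rapamycin; on 12 arrays the replicate block gave 0 calls, also over all genes, with medians of -0.70, -0.24, 0.01 and 0.11.

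Leaving out 1 of the 8 arrays gave, for PP242 against DMSO, 4 to 16 cytosolic, 2 to 6 mitochondrial and 5 to 15 companion calls and 2197 to 6329 genes, with medians of -0.63 to -0.51 and -0.05 to 0.04. For rapamycin against DMSO it gave 0 members and companions, 0 to 107 genes and medians of -0.34 to -0.19 and -0.10 to -0.03. For PP242 against rapamycin it gave 0 to 7, 0 to 3 and 1 to 9 calls, 681 to 3832 genes and medians of -0.33 to -0.27 and -0.05 to 0.02. Where this leaves PP242 with 1 array, that array is assumed to vary like the other groups. All members stood well above background on all arrays, but on the arrays with raised dim probes up to 97.9% of all probes did, and the effect of those raised signals on the members was not tested.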

Other observations

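Probes of a gene did not always move alike. Of 16 members with several probes that passed, Tars2 and Wars2 had probes of opposite sign in PP242 against DMSO. A second Wars2 probe had -1.22, -0.83, -0.72 and -1.30 in PP242 cultures 1 to 4, -1.25, -1.27, -2.61 and -1.29 in rapamycin cultures, and -1.33, -1.62, -1.36 and -1.23 in DMSO cultures, where the probe used gave a change of -0.12. On the 8 arrays used, this probe was higher under PP242 by 0.53.

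The leucine enzyme Lars had 3 probes. The probe used changed by -0.57, while a dimmer one had -0.53, -0.13, -0.65 and -0.58 in PP242 cultures, 0.90, 1.00, 0.08 and 1.69 in rapamycin cultures, and 1.64, 1.30, 1.65 and 1.71 in DMSO cultures. All 4 PP242 arrays lay below every other array, and on the 8 arrays the difference between PP242 and DMSO was -2.05. The parts of the transcript that these probes cover were not analysed here.

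Rapamycin 4, an array without raised dim probes, was below rapamycin 1 and 2 in a few members: Aars had 3.89 there against 4.56 and 4.67, Sars 4.65 against 5.25 and 5.35, and Iars2 1.64 against 2.12 and 2.16.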
